A study of Sander lucioperca with 12 samples.

Results

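The whole-brain transcriptomes of juvenile pikeperch (Sander lucioperca, a large European freshwater predator) caught in August 2023 were compared between 3 piscivores, numbered 1, 2 and 4, and 3 planktivores, numbered 4, 5 and 6. These 6 fish are the 2023 samples of a series of 12 wild fish, which also holds 3 piscivores and 3 planktivores of August 2022. Piscivores were taken from the littoral zone of a reservoir by beach seining at night, and planktivores from the open water by trawling at night, so that habitat, fishing gear and the larger body size of piscivores cannot be told apart from the feeding phenotype. All 6 fish were untreated and wild-caught, their sex was not determined, no strain or genotype is given, and their libraries of poly(A)-selected RNA carry the same batch date. Each library is a separate fish, so the spread within a group is between fish.

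Young pikeperch start out eating zooplankton in open water. Those that grow fast enough to swallow other fish turn to piscivory and settle near the bottom and the shore, and both kinds coexist within a cohort for some time. A whole fish brain holds more than neurons and glia. It is wrapped in meninges made of fibroblasts that lay down collagens, laminins and proteoglycans and carry transporters between blood, cerebrospinal fluid and brain. It also holds blood, resident macrophages called microglia, and the choroid plexus, an epithelium that secretes cerebrospinal fluid. The telencephalon at the front is patterned by transcription factors such as emx and tbr1 in its pallium and dlx, arx and sp8/sp9 in its subpallium. The thalamus, hypothalamus and midbrain behind it are patterned by irx, pax, nkx2 and otp genes.

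Counts of uniquely mapped reads within exons were available for 32963 named genes, with 15327406 to 33858794 counts per fish of 2023. They were scaled to CPM, counts relative to the library's effective total by the trimmed mean of M-values (TMM). Values per fish are always given in the order piscivores 1, 2 and 4, then planktivores 4, 5 and 6. A log2 fold change above 0 is higher in piscivores, and its error is an approximate standard error (SE) from the fit to 3 fish against 3. This SE is the size of the log2 fold change divided by the square root of edgeR's F statistic. Differences were tested for 21386 genes that passed a filter on low counts, with edgeR's quasi-likelihood test and Benjamini-Hochberg adjustment over all of them. A gene was called differentially transcribed (DT) at an adjusted p below 0.05 and a log2 fold change beyond 1 in either direction. The median log2 fold change of all tested genes was 0.00. Neuronal markers (elavl3, elavl4, snap25a, map2 and syt1a) summed to 4119.8, 4543 and 4556 CPM in piscivores against 4525, 5086 and 5464 CPM in planktivores, which places each library in brain tissue.

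In all, 27 genes rose in piscivores and 9 were higher in planktivores, which are 0.126% and 0.0421% of the tested genes. All 36 separated the groups without overlap, so that the lowest fish of the higher group lay above the highest fish of the other group, but 11.0% of all tested genes did so with piscivores higher and 8.96% with planktivores higher. At an unadjusted p below 0.05 1903 genes were higher and 1023 lower in piscivores, or 8.90% and 4.78% of those tested. A DESeq2 Wald test with the same thresholds called 358 genes with higher levels in piscivores and 52 with lower ones (1.63% and 0.237% of those it tested), all 36 edgeR genes among them. The count of calls rested on each of the 6 fish. It was 1 without piscivore 1 or without planktivore 6, 5 without piscivore 2, 8 without piscivore 4, and 16 without planktivore 4 or without planktivore 5. All 36 genes kept their direction in each of these fits. Of the 36, 35 are protein-coding and 16 carry only a locus number (LOC), with no gene name in the annotation.

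**Figure D1:**
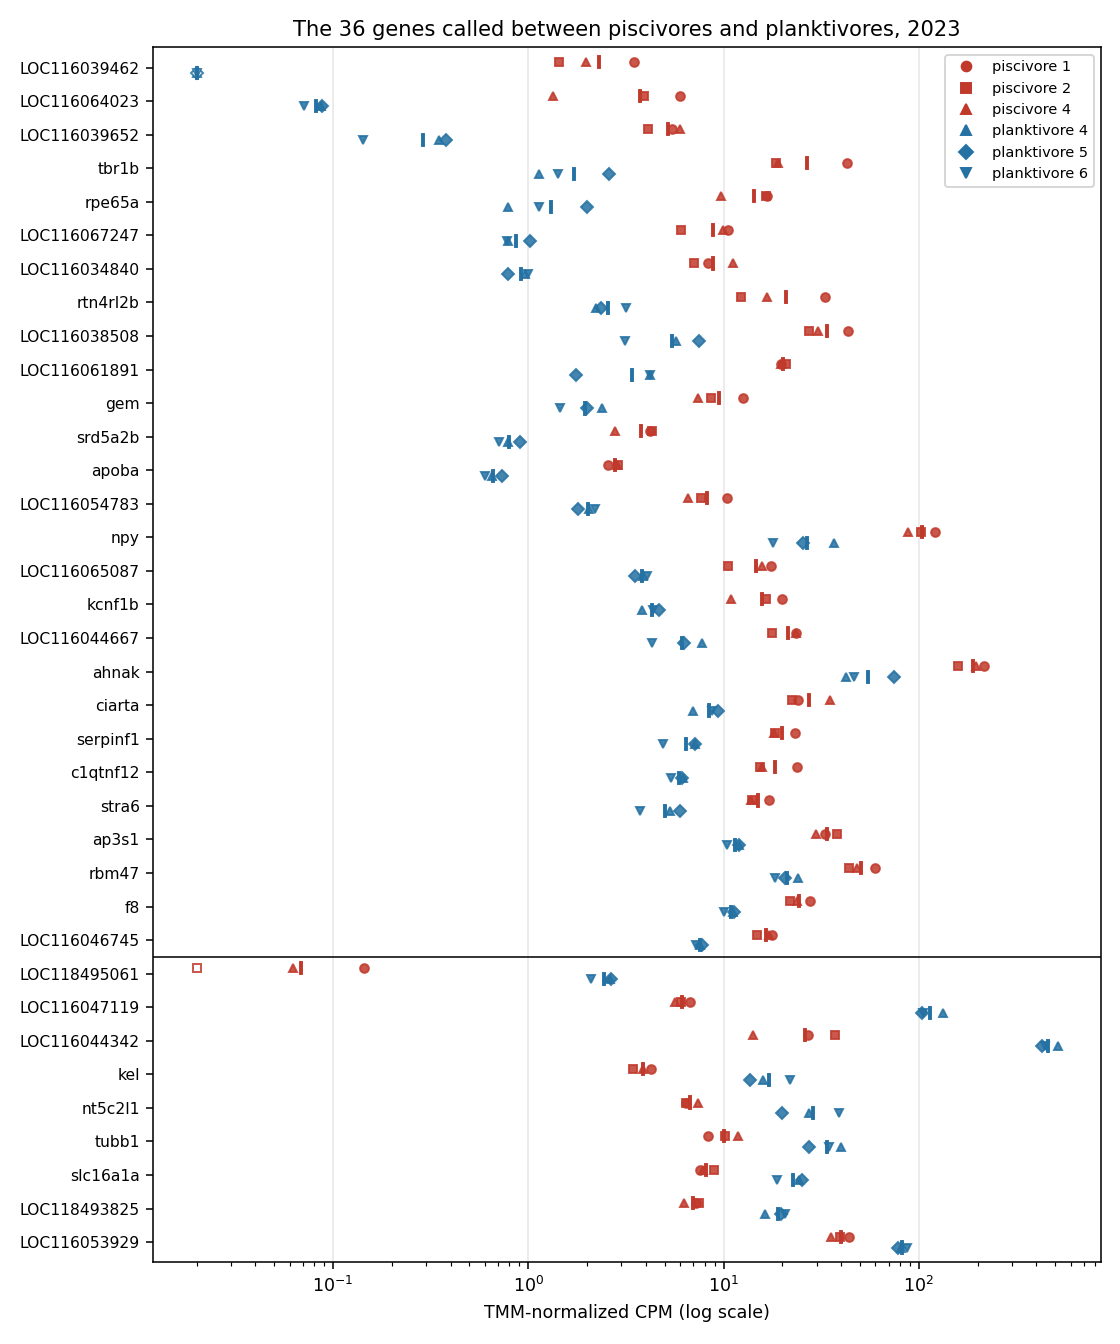
TMM-normalized CPM (log scale) of the 36 DT genes in each fish, with red symbols for the 3 piscivores, blue symbols for the 3 planktivores and a vertical tick for each group's mean. The 27 genes above the line are higher in every piscivore than in any planktivore and the 9 below it are lower in every piscivore, and open symbols drawn at the left edge stand for fish with no count.

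Among the genes higher in planktivores, the smallest p in the whole comparison belonged to LOC116047119 (chromosome 14, 20641375 to 20644009 in assembly SLUC_FBN_1.2), which the study's supplementary lists name eef1a1a, a translation elongation factor. Its level was 6.74, 6.09 and 5.65 CPM in piscivores, against 133, 104 and 105 CPM in planktivores. All 3 planktivores stood far above all 3 piscivores, by 18.5 times on the fitted scale (log2 fold change -4.21 ± 0.16 (SE), edgeR adjusted p = 1.72e-04), and it was the 1 gene still called whichever fish was left out. Genes of this family have near-identical copies, and because reads that map to several places were not counted, the split between copies is uncertain. LOC116044342 (chromosome 22, 10051372 to 10052672) measured 26.96, 37.2 and 14.1 CPM in piscivores, against 517, 425 and 443 CPM in planktivores (log2 fold change -4.15 ± 0.36 (SE), edgeR adjusted p = 0.0209). Among the fish of 2022 neither gene followed the phenotype. LOC116047119 had 96.4, 3.80 and 262 CPM in piscivores 1, 2 and 3, against 4.40, 93.1 and 84.0 CPM in planktivores 2, 3 and 4, so that 1 fish of each phenotype was low and the others high. LOC116044342 had 7.42, 286 and 131 against 36.6, 63.7 and 6.00 CPM, with overlapping groups.

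The other named genes higher in planktivores were kel, nt5c2l1, tubb1 and slc16a1a. kel, the Kell blood group glycoprotein of the red cell membrane (chromosome 10, 24291613 to 24297004), measured 4.25, 3.42 and 3.88 CPM in piscivores, against 15.9, 13.6 and 21.96 CPM in planktivores (log2 fold change -2.15 ± 0.22 (SE), edgeR adjusted p = 0.0337). nt5c2l1, which is related to a cytosolic nucleotidase, measured 6.45, 6.43 and 7.44 CPM in piscivores, against 27.3, 19.99 and 39.0 CPM in planktivores (log2 fold change -2.08 ± 0.25 (SE), edgeR adjusted p = 0.0435). tubb1, a beta-tubulin that mammals use in platelets, measured 8.30, 10.2 and 11.8 CPM in piscivores, against 40.1, 27.5 and 34.6 CPM in planktivores (log2 fold change -1.75 ± 0.19 (SE), edgeR adjusted p = 0.0416). In each of the 3 the highest piscivore was below the lowest planktivore, and kel was also lower in the piscivores of 2022 (-1.21 ± 0.41 (SE), edgeR adjusted p = 0.550). In whole-brain RNA, fewer cells of a type and less RNA per cell cannot be told apart. slc16a1a, which encodes a carrier of lactate and pyruvate found in brain capillaries, measured 7.61, 8.96 and 7.88 CPM in piscivores, against 24.4, 25.4 and 18.7 CPM in planktivores (log2 fold change -1.49 ± 0.16 (SE), edgeR adjusted p = 0.0416). The remaining genes higher in planktivores were LOC118495061, LOC118493825 and the long non-coding RNA LOC116053929. LOC118495061 was nearly absent from piscivores, with 5, 0 and 2 counts against 60, 90 and 59.

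The genes that rose in piscivores included 2 that handle retinoids and 2 that make or convert sex steroids, while the list of retinoic acid genes had 2 of 18 members higher at an unadjusted p below 0.05. rpe65a, the isomerohydrolase that regenerates visual chromophore in pigment epithelium (chromosome 9, 10151515 to 10156975), measured 16.7, 16.4 and 9.74 CPM in piscivores, against 0.784, 1.99 and 1.14 CPM in planktivores (log2 fold change 3.42 ± 0.38 (SE), edgeR adjusted p = 0.0416). stra6, the membrane receptor through which cells take up retinol, measured 17.2, 14.0 and 13.8 CPM in piscivores, against 5.31, 5.98 and 3.72 CPM in planktivores (log2 fold change 1.58 ± 0.21 (SE), edgeR adjusted p = 0.0471). Neither showed a like difference among the fish of 2022, where their log2 fold changes were 0.34 ± 1.40 (SE), edgeR adjusted p = 0.979 and -0.25 ± 0.92 (SE), edgeR adjusted p = 0.976. srd5a2b, a steroid 5-alpha-reductase that acts on testosterone and progesterone, measured 4.19, 4.31 and 2.79 CPM in piscivores, against 0.784, 0.909 and 0.709 CPM in planktivores (log2 fold change 2.22 ± 0.29 (SE), edgeR adjusted p = 0.0457). LOC116038508, named cyp19a1a by the study, encodes an aromatase, the enzyme that turns androgens into estrogens. It measured 43.6, 27.4 and 30.6 CPM in piscivores, against 5.71, 7.53 and 3.12 CPM in planktivores (log2 fold change 2.63 ± 0.33 (SE), edgeR adjusted p = 0.0465), and its lowest piscivore had more than its highest planktivore by a wide margin.

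A further 6 of the genes that rose are known from neurons, although lists of neuronal identity and synaptic vesicles, given with the other families, did not stand above the background. tbr1b, a T-box transcription factor of glutamatergic neurons in the pallium (chromosome 8, 22755774 to 22760311), measured 42.8, 18.5 and 19.02 CPM in piscivores, against 1.13, 2.58 and 1.42 CPM in planktivores. Its level was highest in piscivore 1, and the other piscivores still had several times the level of any planktivore (log2 fold change 3.94 ± 0.46 (SE), edgeR adjusted p = 0.0435). npy, the appetite-stimulating neuropeptide Y (chromosome 16, 21718968 to 21721671), measured 122, 103 and 88.5 CPM in piscivores, against 36.7, 25.5 and 18.02 CPM in planktivores (log2 fold change 1.97 ± 0.26 (SE), edgeR adjusted p = 0.0471). kcnf1b, a modulatory subunit of voltage-gated potassium channels, measured 19.8, 16.5 and 10.9 CPM in piscivores, against 3.83, 4.69 and 4.36 CPM in planktivores (log2 fold change 1.87 ± 0.24 (SE), edgeR adjusted p = 0.0457). rtn4rl2b, a relative of the Nogo receptor that restrains axon growth in mammals, measured 33.3, 12.3 and 16.8 CPM in piscivores, against 2.22, 2.35 and 3.16 CPM in planktivores (log2 fold change 3.02 ± 0.39 (SE), edgeR adjusted p = 0.0476). gem, a small GTP-binding protein that dampens calcium channels, measured 12.5, 8.62 and 7.38 CPM in piscivores, against 2.396, 1.99 and 1.45 CPM in planktivores (log2 fold change 2.29 ± 0.28 (SE), edgeR adjusted p = 0.0435). LOC116039652, named slc1a1 by the study, is a high-affinity glutamate transporter, and it measured 5.47, 4.11 and 5.99 CPM in piscivores, against 0.348, 0.381 and 0.142 CPM in planktivores (log2 fold change 4.14 ± 0.38 (SE), edgeR adjusted p = 0.0209). Planktivores were close to the lowest measurable level for this gene, since 3 counts correspond to 0.0868 to 0.205 CPM in these libraries. In 2022 LOC116039652 had 0.865, 0.156 and 0.0495 CPM in piscivores 1, 2 and 3, against 0.435, 2.99 and 0.443 CPM in planktivores 2, 3 and 4. The groups overlapped there (log2 fold change -1.92 ± 1.14 (SE), edgeR adjusted p = 0.786).

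The remaining named genes that rose included 4 for secreted proteins. f8, coagulation factor VIII (chromosome 1, 31091904 to 31111127), measured 27.7, 21.9 and 23.8 CPM in piscivores, against 11.2, 11.3 and 10.1 CPM in planktivores (log2 fold change 1.17 ± 0.14 (SE), edgeR adjusted p = 0.0435). apoba, the apolipoprotein B that carries lipid in plasma, was low in every fish at 2.57, 2.87 and 2.85 CPM in piscivores, against 0.653, 0.733 and 0.603 CPM in planktivores (log2 fold change 2.05 ± 0.26 (SE), edgeR adjusted p = 0.0435). The study instead reports apoba as higher in piscivores in 2022 and similar between phenotypes in 2023. In 2022 it was not tested, at 0.185, 0.156 and 0.445 CPM in piscivores 1, 2 and 3, against 0.827, 1.62 and 0.414 CPM in planktivores 2, 3 and 4. serpinf1, the secreted pigment epithelium-derived factor, measured 23.4, 18.3 and 18.2 CPM in piscivores, against 7.19, 7.18 and 4.90 CPM in planktivores (log2 fold change 1.64 ± 0.20 (SE), edgeR adjusted p = 0.0435), and it was 1 of the 3 DT genes with an unadjusted p below 0.05 in the same direction in 2022, beside kel and LOC116044667. c1qtnf12, a secreted relative of complement C1q, measured 23.7, 15.4 and 15.7 CPM in piscivores, against 6.19, 6.10 and 5.39 CPM in planktivores (log2 fold change 1.63 ± 0.20 (SE), edgeR adjusted p = 0.0435). ahnak, a giant scaffold protein of the cell cortex, measured 217, 158 and 197 CPM in piscivores, against 42.6, 74.8 and 46.9 CPM in planktivores (log2 fold change 1.80 ± 0.24 (SE), edgeR adjusted p = 0.0471). The RNA-binding protein gene rbm47 measured 59.7, 43.9 and 48.0 CPM in piscivores, against 24.2, 20.7 and 18.3 CPM in planktivores (log2 fold change 1.26 ± 0.16 (SE), edgeR adjusted p = 0.0457), and ap3s1, a subunit of the AP-3 vesicle coat, measured 33.1, 38.3 and 29.7 CPM in piscivores, against 12.0, 12.0 and 10.4 CPM in planktivores (log2 fold change 1.55 ± 0.14 (SE), edgeR adjusted p = 0.0209).

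Several of the steepest differences lay in genes without a name. For LOC116039462 there were 121, 21 and 64 counts in piscivores 1, 2 and 4 and none in any planktivore, which is at least 21.3-fold higher when each planktivore is set to 3 counts. LOC116064023 had 208, 57 and 43 counts against 2, 3 and 2. Both were seen in all 3 piscivores and were at or below the 3-count limit in all 3 planktivores. LOC116067247 (chromosome 3, 7466243 to 7479976) measured 10.6, 6.09 and 9.93 CPM in piscivores, against 0.784, 1.03 and 0.780 CPM in planktivores (log2 fold change 3.35 ± 0.29 (SE), edgeR adjusted p = 0.0209), and LOC116034840 (chromosome 14, 26390989 to 26415157) measured 8.33, 7.05 and 11.2 CPM in piscivores, against 0.958, 0.791 and 0.993 CPM in planktivores (log2 fold change 3.28 ± 0.25 (SE), edgeR adjusted p = 0.0175). LOC116061891 measured 19.6, 21.0 and 19.6 CPM in piscivores, against 4.18, 1.76 and 4.22 CPM in planktivores (log2 fold change 2.58 ± 0.32 (SE), edgeR adjusted p = 0.0435). LOC116054783, which the study calls a mapk12-like kinase, measured 10.4, 7.66 and 6.55 CPM in piscivores, against 2.05, 1.79 and 2.199 CPM in planktivores (log2 fold change 2.03 ± 0.24 (SE), edgeR adjusted p = 0.0435). LOC116065087, LOC116044667 and LOC116046745 had log2 fold changes of 1.94 ± 0.22, 1.82 ± 0.24 and 1.13 ± 0.14. In 2022, LOC116067247 had 5.25, 1.04 and 0.693 CPM in piscivores 1, 2 and 3, against 0.348, 4.73 and 3.81 CPM in planktivores 2, 3 and 4. LOC116061891 had 20.8, 0.417 and 1.73 against 0.0871, 14.3 and 9.34 CPM, and LOC116039462 had 2.78, 0.0521 and 0 against 2.09, 4.58 and 2.25 CPM. The groups overlapped in all of these. The other genes of this paragraph that were tested in 2022 pointed the same way as in 2023.

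The 36 genes were also followed in the fish of 2022, which are other animals sequenced on another batch date. Of the 34 that could be tested there, 23 pointed the same way as in 2023 and 11 the opposite way, and none was called. In 2022, 3 had an unadjusted p below 0.05 with the same direction (kel, serpinf1 and LOC116044667) and 1 with the opposite direction (ciarta, -1.56 ± 0.27 (SE), edgeR adjusted p = 0.161). The background share of tested genes with an unadjusted p below 0.05 in 2022 was 4.30% higher in piscivores and 2.95% higher in planktivores.

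Gene families and pathways were described with lists of named genes, in which LOC genes have no place. A list is given by the number of its members tested, the median of their log2 fold changes, and how many had an unadjusted p below 0.05 in each direction. These counts are to be read against the background of 8.90% higher in piscivores and 4.78% higher in planktivores. Single members that did not reach the DT threshold are given by their values, and only the genes named above as DT passed the test. The plot of the lists shows all members together with their medians.

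**Figure D2:**
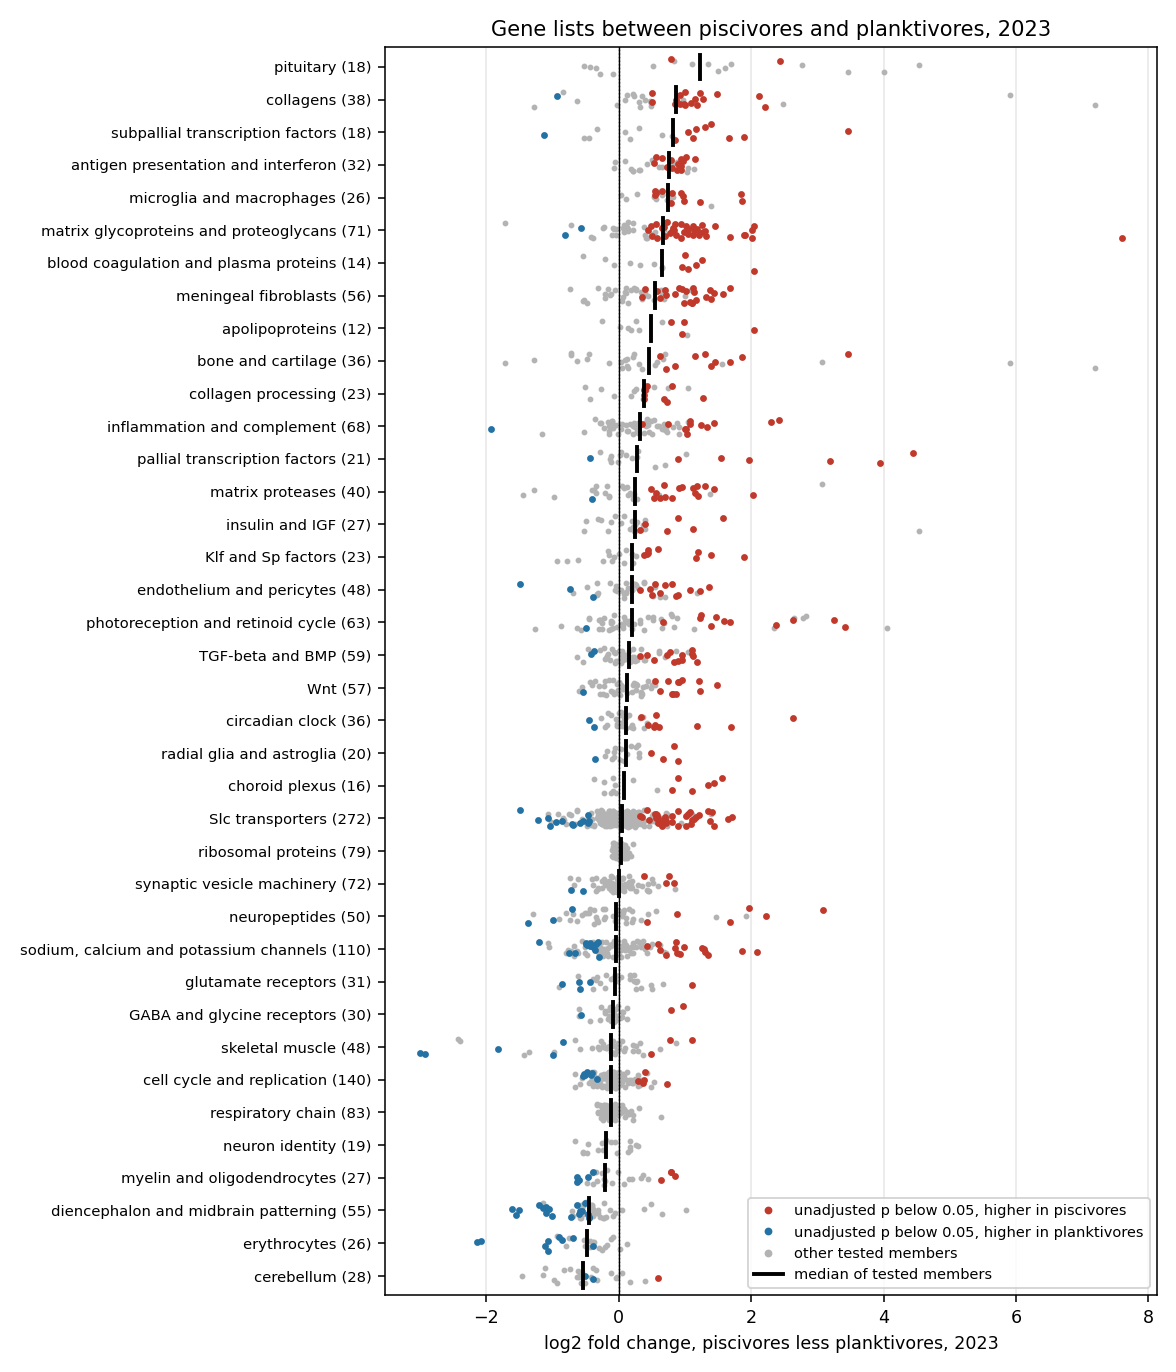
Log2 fold change between piscivores and planktivores of 2023 for every tested member of each gene list (number tested in parentheses), in red or blue where the unadjusted edgeR p was below 0.05 and grey otherwise, with a black bar at the list's median. Collagens, matrix glycoproteins and meningeal genes spread to the right of 0, genes that pattern the diencephalon and midbrain spread to the left, and respiratory chain and ribosomal protein genes stay close to 0.

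Matrix glycoproteins were the list with the most members higher in piscivores at an unadjusted p below 0.05. Of 71 matrix glycoproteins and proteoglycans tested, 39 had an unadjusted p below 0.05 with piscivores higher and 2 with planktivores higher, and the median log2 fold change was 0.67. None was called by edgeR, and DESeq2 called 16, all higher in piscivores. fn1b, a fibronectin to which cells attach, had 50.3, 34.97 and 53.0 CPM in piscivores, against 20.4, 20.02 and 17.4 CPM in planktivores (log2 fold change 1.26 ± 0.18 (SE), edgeR adjusted p = 0.0575). lum, the collagen-binding proteoglycan lumican, had 74.3, 39.8 and 31.5 CPM in piscivores, against 14.2, 11.4 and 10.5 CPM in planktivores (log2 fold change 2.02 ± 0.32 (SE), edgeR adjusted p = 0.0924). Both genes separated the groups, with piscivore 1 standing out in lum. emilin2a of elastic fibres had 22.4, 17.2 and 17.4 CPM in piscivores, against 9.801, 8.62 and 6.28 CPM in planktivores, and lamb1a, a laminin chain of basement membranes, had 40.9, 37.0 and 45.9 CPM in piscivores, against 24.3, 20.4 and 14.97 CPM in planktivores, with edgeR adjusted p of 0.0924 and 0.0969. igfals, which binds insulin-like growth factors in plasma, had 121, 133 and 65.4 CPM in piscivores, against 54.3, 49.0 and 42.7 CPM in planktivores (log2 fold change 1.13 ± 0.26 (SE), edgeR adjusted p = 0.149). The small leucine-rich proteoglycans, the group lum belongs to, had a median of 1.13 over 11 members (0.59 without piscivore 1), 7 of them with an unadjusted p below 0.05. Their best-known member dcn, decorin, had 87.1, 92.2 and 86.7 CPM in piscivores, against 72.0, 70.0 and 46.9 CPM in planktivores (log2 fold change 0.49 ± 0.17 (SE), edgeR adjusted p = 0.285).

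Collagens, the fibres and sheets of the matrix, had a median log2 fold change of 0.86 over 38 tested members, with 17 higher and 1 lower in piscivores at an unadjusted p below 0.05. Without piscivore 1 the median was 0.41. col17a1b, a transmembrane collagen, had 30.7, 18.9 and 21.3 CPM in piscivores, against 12.1, 9.85 and 8.34 CPM in planktivores (log2 fold change 1.23 ± 0.22 (SE), edgeR adjusted p = 0.0969). col8a1a, a network-forming collagen of vessel walls and basement membranes, had 43.0, 48.5 and 33.1 CPM in piscivores, against 22.7, 22.1 and 13.3 CPM in planktivores (log2 fold change 1.097 ± 0.23 (SE), edgeR adjusted p = 0.129). The basement membrane collagen col15a1b had 19.5, 17.3 and 23.9 CPM in piscivores, against 9.84, 14.0 and 9.72 CPM in planktivores and the fibril-associated col16a1 had 27.4, 22.1 and 22.4 CPM in piscivores, against 16.6, 12.2 and 9.19 CPM in planktivores. In these 4 genes no piscivore was as low as any planktivore. By structural class, an unadjusted p below 0.05 with piscivores higher was seen for 3 of 12 fibrillar, 4 of 10 fibril-associated, 3 of 4 beaded-filament and both transmembrane collagens. Cartilage collagens behaved otherwise. col10a1a, the collagen of hypertrophic cartilage, measured 268, 0.616 and 0.341 CPM in piscivores, against 4.40, 0.147 and 0.284 CPM in planktivores and so was high in piscivore 1 alone, and col2a1a, the main collagen of cartilage, measured 4.57, 2.19 and 10.2 CPM in piscivores, against 39.4, 1.76 and 1.35 CPM in planktivores, with planktivore 4 highest.

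Enzymes that build and cut the matrix were described by 2 further lists. Of 23 genes for collagen folding and cross-linking, 9 had an unadjusted p below 0.05, each with piscivores higher, and the median was 0.39. They included the prolyl hydroxylase gene p4ha1b (25.6, 25.7 and 18.2 against 12.5, 14.2 and 16.6 CPM), its partner p4hb (186, 162 and 166 against 121, 132 and 128 CPM) and the cross-linking oxidase loxl2b (6.45, 4.58 and 4.90 against 2.87, 3.99 and 2.73 CPM). Of 40 matrix proteases and related genes, 16 were higher and 1 lower in piscivores at that level. mmp2, a gelatinase, had 219, 151 and 139.996 CPM in piscivores, against 88.1, 70.3 and 46.96 CPM in planktivores (log2 fold change 1.31 ± 0.26 (SE), edgeR adjusted p = 0.118), and its activator mmp14b had 86.9, 54.7 and 46.5 CPM in piscivores, against 29.3, 26.4 and 26.1 CPM in planktivores (log2 fold change 1.203 ± 0.23 (SE), edgeR adjusted p = 0.104). adamtsl4 (17.04, 11.8 and 14.8 against 6.80, 6.19 and 3.05 CPM) and the sheddase adam8a (11.2, 4.72 and 4.16 against 1.18, 1.88 and 1.84 CPM) also separated the groups. In 2022, 16 of 38 collagens and 19 of 71 matrix glycoproteins and proteoglycans were higher in piscivores at an unadjusted p below 0.05. None of these 2 lists was lower at that level, and their medians were 0.56 and 0.37. Collagen folding and cross-linking genes had 5 higher and 0 lower of 21 in 2022, at a median of 0.33. Matrix proteases had 5 higher and 1 lower of 38, at a median of 0.18. The background in 2022 was 4.30% higher and 2.95% lower in piscivores.

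**Figure D3:**
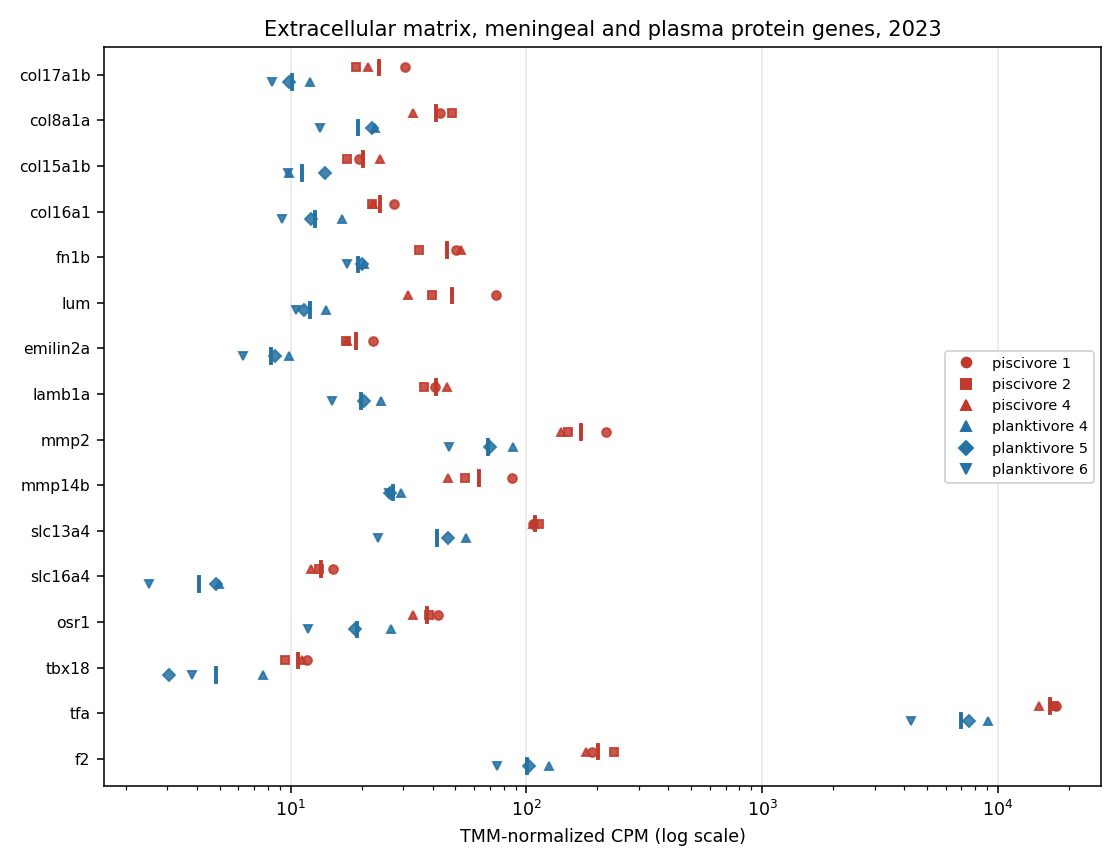
TMM-normalized CPM (log scale) of 16 genes of the extracellular matrix, the meninges and plasma in each fish, red for the 3 piscivores and blue for the 3 planktivores, with a tick at each group's mean. In all 16 genes the lowest piscivore lies above the highest planktivore, and planktivore 6 has the lowest or nearly the lowest value in most of them. The genes were picked with their values known, so their separation is no result about the lists. Among all tested members, 18 of 38 collagens, 35 of 71 matrix glycoproteins and proteoglycans and 21 of 56 meningeal genes separated this way. The opposite separation held for 1, 2 and 0 members. Of all tested genes, 11.0% had piscivores higher without overlap and 8.96% had planktivores higher.

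Genes of meningeal fibroblasts formed another list. Of 56 tested, 45 had a log2 fold change above 0, 23 were higher in piscivores at an unadjusted p below 0.05 and 0 lower, with a median of 0.55. The median was 0.33 without planktivore 6. The summed level of 8 defining meningeal markers was 393, 359 and 334 CPM in piscivores against 234, 193 and 132 CPM in planktivores, so that each piscivore exceeded each planktivore. slc13a4, a sulfate transporter of the leptomeninges, had 106, 114 and 107 CPM in piscivores, against 55.4, 46.3 and 23.6 CPM in planktivores (log2 fold change 1.38 ± 0.28 (SE), edgeR adjusted p = 0.126). Among the regulators of these cells, osr1 had 42.1, 38.6 and 33.2 CPM in piscivores, against 26.8, 18.7 and 11.8 CPM in planktivores, tbx18 had 11.7, 9.44 and 11.2 CPM in piscivores, against 7.62, 3.05 and 3.83 CPM in planktivores and foxc1a had 24.3, 20.6 and 18.4 CPM in piscivores, against 17.6, 12.6 and 8.90 CPM in planktivores. alx4a, a homeobox gene of mesenchyme, had 10.9, 5.82 and 7.23 against 4.14, 3.22 and 1.84 CPM, and the growth factor genes bmp4, bmp5 and bmp7b had log2 fold changes of 1.104, 1.12 and 0.96. aebp1, a collagen-binding protein, had 31.3, 26.1 and 25.1 CPM in piscivores, against 13.5, 10.32 and 6.56 CPM in planktivores, and igfbp5a, which binds insulin-like growth factors, had 14.4, 7.66 and 8.59 CPM in piscivores, against 3.62, 2.96 and 3.76 CPM in planktivores. The marker aldh1a2, which makes retinoic acid in the meninges, differed little, with 22.7, 25.2 and 24.5 CPM in piscivores, against 23.4, 18.5 and 18.8 CPM in planktivores (log2 fold change 0.25 ± 0.14 (SE), edgeR adjusted p = 0.451). How much of the higher matrix transcription goes with more meningeal tissue on the brain was not tested.

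Solute carriers (Slc), the transporters that move ions, sugars, amino acids and other solutes across membranes, formed the largest family described. Of 272 tested, 38 were higher and 13 lower in piscivores at an unadjusted p below 0.05, at a median of 0.05. Of these named members 1 was called, slc16a1a, which was higher in planktivores. DESeq2 called 12 higher and 3 lower. The members higher in piscivores included slc16a4, a monocarboxylate carrier, with 15.1, 13.1 and 12.2 CPM in piscivores, against 4.97, 4.81 and 2.52 CPM in planktivores (log2 fold change 1.72 ± 0.27 (SE), edgeR adjusted p = 0.0806). The potassium-chloride cotransporter slc12a4 had 37.1, 36.7 and 41.2 CPM in piscivores, against 22.5, 24.98 and 22.95 CPM in planktivores (log2 fold change 0.71 ± 0.11 (SE), edgeR adjusted p = 0.0837), and the zinc and manganese carrier slc39a8 had 32.2, 34.01 and 26.1 CPM in piscivores, against 16.5, 15.8 and 10.9 CPM in planktivores (log2 fold change 1.095 ± 0.19 (SE), edgeR adjusted p = 0.0969). In all 3 the groups were apart, with slc12a4 showing the tightest groups. The anion exchanger slc4a2b (78.1, 69.0 and 59.7 against 40.1, 37.1 and 25.1 CPM), the iodide carrier slc5a5 (58.3, 57.8 and 44.3 against 34.7, 26.6 and 16.2 CPM), the dicarboxylate carrier slc13a3 (122, 117 and 85.7 against 66.2, 58.7 and 35.1 CPM) and the organic cation extruder slc47a1 (30.7, 34.8 and 23.1 against 16.4, 16.5 and 8.83 CPM) had edgeR adjusted p of 0.109, 0.172, 0.161 and 0.161. slc1a6, a glutamate transporter, had 60.9, 25.2 and 36.8 against 14.1, 15.6 and 18.9 CPM, and slc35f2 had 18.2, 18.9 and 15.7 against 9.41, 8.88 and 5.71 CPM. By substrate, the share higher in piscivores at an unadjusted p below 0.05 was 6 of 22 among carriers of organic ions, 9 of 35 among those of sugars and monocarboxylates, and 9 of 69 among those of amino acids and neurotransmitters. Among mitochondrial and endomembrane carriers it was 1 of 62, with 4 lower. Genes that the study names slc22a6, carriers of organic anions, carry LOC numbers and so lie outside the list. LOC116034895 had 23.1, 26.5 and 21.2 against 12.98, 11.7 and 6.63 CPM and LOC116062370 had 13.7, 13.4 and 12.3 against 7.19, 6.77 and 3.12 CPM. LOC116039652, which the study names slc1a1, also lies outside the list and was called, higher in piscivores (log2 fold change 4.14 ± 0.38 (SE), edgeR adjusted p = 0.0209).

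The choroid plexus gave a mixed picture. The defining markers foxj1a and kl had 11.4, 8.35 and 12.3 against 12.0, 8.91 and 6.99 CPM and 0.579, 1.30 and 0.744 against 1.22, 0.909 and 0.851 CPM, and ttr, transthyretin, had no count in any fish. Of 16 tested genes of this list 6 were higher in piscivores at an unadjusted p below 0.05 and 0 lower. They were enpp2, the autotaxin that makes lysophosphatidic acid (2.55, 2.94 and 2.14 against 0.915, 0.850 and 0.816 CPM), the growth factor gene igf2b (64.6, 53.1 and 54.5 against 38.6, 29.8 and 24.7 CPM), the Wnt carrier wls (57.8, 40.2 and 45.5 against 28.5, 24.1 and 29.9 CPM), the potassium channel gene kcnj13 (6.22, 5.82 and 5.77 against 2.35, 3.25 and 1.35 CPM) and the bicarbonate transporters slc4a5b (7.55, 3.70 and 7.79 against 2.74, 2.67 and 1.67 CPM) and slc4a10b (73.4, 32.2 and 41.5 against 18.4, 17.3 and 32.4 CPM). Of 48 genes of endothelium and pericytes, 12 were higher and 3 lower in piscivores at an unadjusted p below 0.05, at a median of 0.20. The defining markers were uneven. The claudin gene cldn5b was lower in every piscivore, at 4.19, 4.79 and 4.62 against 5.23, 6.42 and 5.32 CPM (log2 fold change -0.32 ± 0.18 (SE), edgeR adjusted p = 0.480). The junction gene cdh5 separated the groups at 9.75, 10.26 and 12.9 against 5.10, 8.97 and 6.10 CPM (log2 fold change 0.70 ± 0.24 (SE), edgeR adjusted p = 0.270), whereas the claudin gene cldn5a had 85.9, 103 and 87.6 against 118, 80.5 and 72.3 CPM (log2 fold change 0.03 ± 0.20 (SE), edgeR adjusted p = 0.965) and the receptor gene kdrl 29.6, 33.1 and 37.3 against 24.4, 29.8 and 25.4 CPM (log2 fold change 0.33 ± 0.14 (SE), edgeR adjusted p = 0.354). Among genes of lymphatic-type and scavenging cells in the same list, the scavenger receptors mrc1a (54.1, 52.01 and 46.9 against 29.8, 25.8 and 17.3 CPM) and stab1 (12.9, 11.5 and 12.9 against 8.23, 7.80 and 5.43 CPM) and the receptor gene flt4 (19.004, 13.6 and 14.5 against 8.93, 7.59 and 3.72 CPM) had edgeR adjusted p of 0.0969, 0.154 and 0.172.

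Some plasma proteins were higher and some red cell genes lower in piscivores. Of 14 plasma and coagulation proteins tested, 6 were higher at an unadjusted p below 0.05 and 0 lower, with a median of 0.66. It was 0.43 without planktivore 6, and with the members under the filter added the median over 24 was -0.04. tfa, the iron carrier transferrin, measured 17595, 17337 and 14990.4 CPM in piscivores, against 9099.7, 7503 and 4260.2 CPM in planktivores (log2 fold change 1.26 ± 0.27 (SE), edgeR adjusted p = 0.133), and f2, prothrombin, measured 191, 236 and 179 CPM in piscivores, against 124, 102 and 75.1 CPM in planktivores (log2 fold change 1.01 ± 0.21 (SE), edgeR adjusted p = 0.122). Both ran in the same order among the planktivores, with planktivore 4 highest and planktivore 6 lowest. apoa1b, the main protein of high-density lipoprotein, measured 4028, 3769 and 2537 CPM in piscivores, against 2410.5, 1879 and 1049 CPM in planktivores (log2 fold change 0.95 ± 0.32 (SE), edgeR adjusted p = 0.264). Of 12 apolipoproteins tested, 4 were higher at that level, and apoa2 was not among them, with 1927, 2128 and 1270.1 CPM in piscivores, against 1620.0, 1014 and 746 CPM in planktivores (log2 fold change 0.66 ± 0.31 (SE), edgeR adjusted p = 0.397). Genes of erythrocytes had a median of -0.47 over 26 members, 9 lower and 0 higher in piscivores at an unadjusted p below 0.05. alas2, the first enzyme of haem synthesis in red cells, had 80.5, 111 and 148 CPM in piscivores, against 366, 131 and 218 CPM in planktivores (log2 fold change -1.07 ± 0.39 (SE), edgeR adjusted p = 0.306), with planktivore 5 below piscivore 4. The anion exchanger slc4a1a of the red cell membrane had 33.6, 53.6 and 82.8 CPM in piscivores, against 158, 78.9 and 119 CPM in planktivores, and the red cell carbonic anhydrase cahz had 51.1, 79.5 and 78.0 CPM in piscivores, against 163, 93.9 and 134 CPM in planktivores. nfe2, a transcription factor of blood precursors, had 23.5, 27.1 and 20.8 CPM in piscivores, against 46.999, 35.4 and 45.97 CPM in planktivores (log2 fold change -0.85 ± 0.16 (SE), edgeR adjusted p = 0.0986). In 2022 the erythrocyte median was 0.09.

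Many microglia and immune genes were higher in piscivores, and their lists stood highest in piscivore 1. All 26 tested microglia and macrophage genes had a log2 fold change above 0, 12 of them at an unadjusted p below 0.05, with a median of 0.74. Without piscivore 1 the median was 0.31, and in 2022 it was 0.03. The complement genes c1qa and c1qb, made in brain mainly by microglia, had 37.0, 7.80 and 13.7 CPM in piscivores, against 5.88, 4.02 and 6.60 CPM in planktivores and 37.3, 7.87 and 12.5 CPM in piscivores, against 6.45, 3.49 and 6.03 CPM in planktivores. Piscivore 1 stood far above the next fish, and the remaining piscivores exceeded the planktivores by less (log2 fold change 1.84 ± 0.56 (SE), edgeR adjusted p = 0.237 for c1qa). The receptor gene csf1ra, on which microglia depend, had 32.9, 14.0 and 12.8 CPM in piscivores, against 7.10, 12.5 and 15.4 CPM in planktivores, and the transcription factor gene spi1a had 18.5, 10.33 and 7.97 CPM in piscivores, against 6.05, 9.73 and 8.66 CPM in planktivores, so that the groups overlapped in both. apoeb, an apolipoprotein E that marks microglia in zebrafish, had 2004, 2145 and 1638 CPM in piscivores, against 1486, 1147 and 700.4 CPM in planktivores (log2 fold change 0.80 ± 0.27 (SE), edgeR adjusted p = 0.270).

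Of 32 genes for antigen presentation and interferon response, 14 were higher in piscivores at an unadjusted p below 0.05 and 0 lower, at a median of 0.76, against 0.50 without piscivore 1 and -0.16 in 2022. They included usp18, a brake on interferon signalling (12.2, 6.84 and 9.03 against 4.36, 5.34 and 4.93 CPM), the immunoproteasome subunit psmb9a (66.6, 34.01 and 47.5 against 26.004, 27.5 and 32.4 CPM) and the interferon-induced genes ifi35 (37.6, 22.9 and 29.5 against 14.98, 17.97 and 21.1 CPM) and cmpk2 (11.1, 4.93 and 9.52 against 4.05, 4.25 and 4.75 CPM). DESeq2 called none of them. Among 68 genes of inflammation and complement the count was 12 higher and 1 lower. cfh, complement factor H, had 61.0, 63.0 and 51.0 CPM in piscivores, against 35.6, 33.5 and 34.9 CPM in planktivores (log2 fold change 0.75 ± 0.12 (SE), edgeR adjusted p = 0.0917), with both groups tight. The terminal complement component gene c6 had 8.53, 1.98 and 3.51 CPM in piscivores, against 1.05, 1.06 and 0.780 CPM in planktivores, and the cytokine gene il22 had 0.260, 0.137 and 0.217 CPM in piscivores, against 0.871, 0.762 and 0.851 CPM in planktivores (log2 fold change -1.92 ± 0.39 (SE), edgeR adjusted p = 0.118). Piscivores were close to the lowest measurable level for il22, which was 0.0868 to 0.205 CPM.

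Transcription factors of brain regions were split, and tbr1b alone among them was called. Among 21 pallial factors tested, 6 were higher and 1 lower in piscivores at an unadjusted p below 0.05. emx3 had 2.52, 0.958 and 0.869 CPM in piscivores, against 0.261, 0.0879 and 0.142 CPM in planktivores, emx1 had 2.46, 1.16 and 1.27 CPM in piscivores, against 0.261, 0.352 and 0.638 CPM in planktivores and eomesa, the fish counterpart of Tbr2, had 52.3, 18.7 and 28.2 CPM in piscivores, against 7.49, 9.15 and 17.5 CPM in planktivores. For emx3 the planktivores had 6, 3 and 4 counts, close to the lowest measurable level. lhx9, which is also made in the thalamus, went the other way, at 50.3, 41.4 and 50.0 CPM in piscivores, against 68.5, 49.1 and 74.8 CPM in planktivores (log2 fold change -0.44 ± 0.18 (SE), edgeR adjusted p = 0.338). Of the 21, 15 had a log2 fold change above 0. The list's median was 0.28 with all fish and 0.01 without piscivore 1, so it rested largely on that fish. The median over members of log2 CPM less the mean of the 6 fish overlapped between the phenotypes. It was 0.40, -0.21 and 0.26 in piscivores, against -0.16, -0.30 and -0.04 in planktivores. The telencephalic markers foxg1a, emx3, tbr1b, eomesa and dlx5a, which include the called gene, summed to 137, 57.3 and 66.5 CPM in piscivores. In planktivores the sum was 13.8, 17.5 and 21.6 CPM. Each of these markers is among the transcription factors that the study lists as higher in piscivores, from fish that include these. The markers were also chosen with earlier results known, so the separation of their sum is no result about the telencephalon.

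Of 18 subpallial factors tested, 9 were higher and 1 lower in piscivores at an unadjusted p below 0.05, with a median of 0.83 (0.18 in 2022). The median was 0.52 without piscivore 1 and 0.52 without planktivore 6. sp9, a zinc-finger factor of inhibitory neuron precursors, had 24.5, 16.01 and 13.5 CPM in piscivores, against 6.88, 8.12 and 5.50 CPM in planktivores (log2 fold change 1.40 ± 0.26 (SE), edgeR adjusted p = 0.0969). arxa, needed for the migration of inhibitory neurons, had 12.7, 8.21 and 6.51 CPM in piscivores, against 2.83, 3.99 and 1.77 CPM in planktivores (log2 fold change 1.67 ± 0.36 (SE), edgeR adjusted p = 0.132). dlx5a had 12.4, 8.28 and 6.24 CPM in piscivores, against 4.27, 4.16 and 2.45 CPM in planktivores, sp8b had 33.99, 27.9 and 13.6 CPM in piscivores, against 11.1, 11.4 and 11.1 CPM in planktivores and the LOC gene that the study names lhx8 had 4.22, 3.01 and 4.31 CPM in piscivores, against 0.958, 1.11 and 0.319 CPM in planktivores. gsx1, a homeobox gene of the ventricular zone that is also made in hypothalamus and hindbrain, went the other way with 9.28, 6.09 and 8.62 CPM in piscivores, against 22.1, 11.8 and 19.1 CPM in planktivores (log2 fold change -1.13 ± 0.26 (SE), edgeR adjusted p = 0.152). It was also lower in the piscivores of 2022 (-1.34 ± 0.35 (SE), edgeR adjusted p = 0.402).

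Of 55 genes that pattern the diencephalon and midbrain, 5 had a log2 fold change above 0. At an unadjusted p below 0.05, 18 were lower in piscivores and 0 higher, with a median of -0.45. The median was -0.46 without piscivore 1 and -0.11 in 2022. otpa, which specifies neuroendocrine neurons of the hypothalamus, had 14.8, 22.2 and 19.4 CPM in piscivores, against 34.4, 32.5 and 26.1 CPM in planktivores (log2 fold change -0.72 ± 0.18 (SE), edgeR adjusted p = 0.166). nkx2.2a, of ventral diencephalon and oligodendrocyte precursors, had 20.5, 23.1 and 17.3 CPM in piscivores, against 37.1, 29.5 and 27.8 CPM in planktivores, and nkx6.2 had 22.1, 31.0 and 31.3 CPM in piscivores, against 37.9, 44.3 and 45.4 CPM in planktivores. irx4a of the Iroquois family was low in every fish, at 0.347, 0.547 and 0.776 CPM in piscivores, against 1.87, 1.41 and 1.84 CPM in planktivores. In these 4 genes every planktivore exceeded every piscivore. A library with a larger share of telencephalon holds a smaller share of the rest, and whether the share of each region differed between the brains was not tested.

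**Figure D4:**
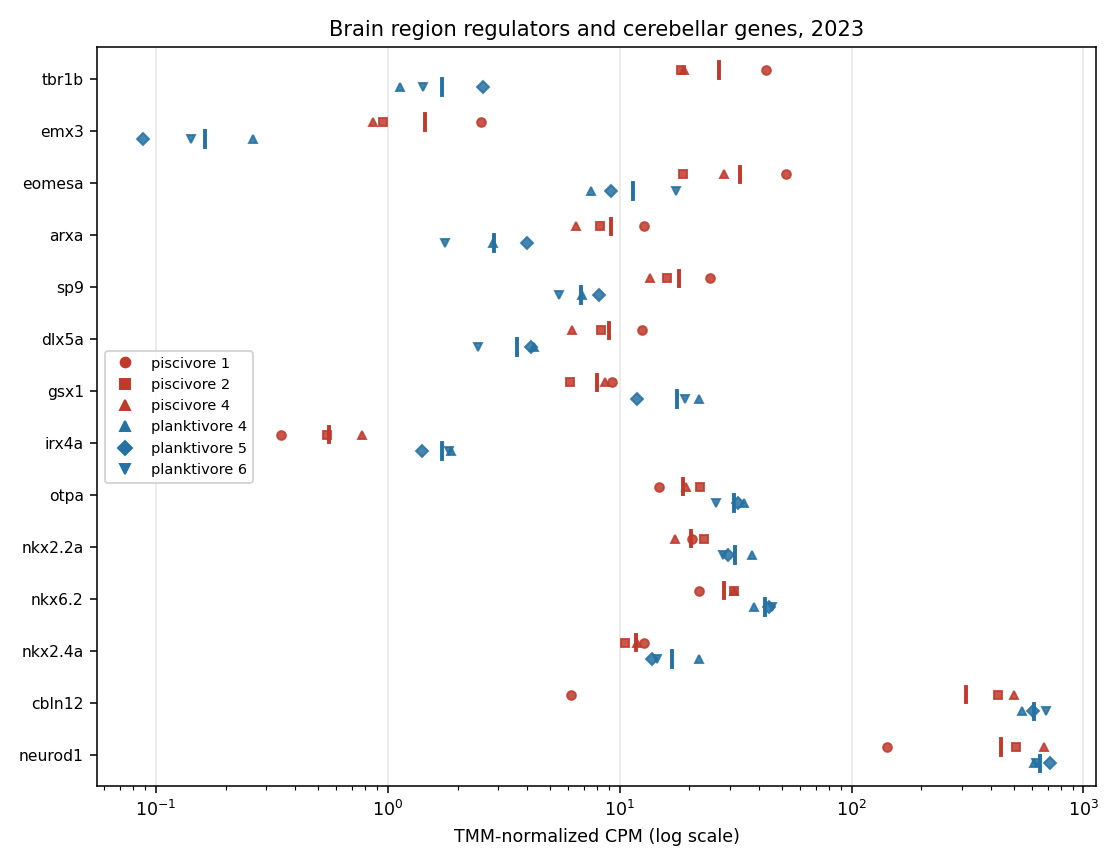
TMM-normalized CPM (log scale) of 14 genes of brain regions in each fish, red for piscivores and blue for planktivores, with a tick at each group's mean. The telencephalic genes from tbr1b to dlx5a are higher in every piscivore, gsx1 and the diencephalic genes from irx4a to nkx2.4a are higher in every planktivore, and piscivore 1 stands far below all other fish in the cerebellar genes cbln12 and neurod1. The genes were picked with their values known. Among all tested members, 6 of 21 pallial and 9 of 18 subpallial factors were higher in every piscivore, and 0 and 2 in every planktivore. Of 55 diencephalic and midbrain genes, 17 were higher in every planktivore and 0 in every piscivore. Over all tested genes, 11.0% were higher in every piscivore and 8.96% in every planktivore.

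Cerebellar genes differed most in 1 fish. cbln12, a cerebellin of granule cells, had 6.19, 426 and 501 CPM in piscivores, against 541, 606 and 691 CPM in planktivores, and neurod1, a transcription factor of the same cells, had 143, 510.5 and 673 CPM in piscivores, against 609.8, 718 and 626 CPM in planktivores. Piscivore 1 was the lowest in both by a wide margin. Of 28 cerebellar genes tested, 2 were lower and 1 higher in piscivores at an unadjusted p below 0.05, and 4 had a log2 fold change above 0. The list's median was -0.53 with all fish, -0.24 without piscivore 1 and -0.41 in 2022. pvalb7, a parvalbumin of Purkinje cells, had 390.1, 422 and 433 CPM in piscivores, against 669, 478 and 625 CPM in planktivores (log2 fold change -0.51 ± 0.16 (SE), edgeR adjusted p = 0.237), and cbln2b had 205, 208 and 157 CPM in piscivores, against 145, 113 and 119 CPM in planktivores. Pituitary hormones split the fish in another way. gh1, growth hormone, had 749.8, 1171 and 0 CPM in piscivores, against 82.8, 0 and 0 CPM in planktivores, and prl, prolactin, had 692, 430.4 and 0.186 CPM in piscivores, against 70.0, 0.0586 and 0.0355 CPM in planktivores. The summed pituitary markers were 2799, 2532 and 0.807 CPM in piscivores against 603, 3.78 and 0.568 CPM in planktivores, so that piscivores 1 and 2 and planktivore 4 carried pituitary transcripts and the other 3 fish hardly any. The phenotypes overlapped in these hormones, and the list is not read as a difference between them.

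Neuropeptides, the signalling peptides of neurons, had a median of -0.03 over 50 genes, with 6 higher and 3 lower in piscivores at an unadjusted p below 0.05. Beside npy, the somatostatin gene sst1.1 was higher, with 38.9, 34.4 and 46.3 CPM in piscivores, against 11.0, 17.4 and 8.97 CPM in planktivores (log2 fold change 1.68 ± 0.25 (SE), edgeR adjusted p = 0.0737). sst5, another somatostatin gene, had 1.30, 0.958 and 0.527 CPM in piscivores, against 0.174, 0.147 and 0 CPM in planktivores, which were close to or below the lowest measurable level. pmch, which encodes melanin-concentrating hormone, was lower with 6.10, 3.83 and 4.68 CPM in piscivores, against 12.2, 10.4 and 6.74 CPM in planktivores (log2 fold change -0.99 ± 0.27 (SE), edgeR adjusted p = 0.192), and nmbb, a neuromedin, was lower with 10.7, 13.2 and 12.2 CPM in piscivores, against 23.6, 13.9 and 21.2 CPM in planktivores. Oxytocin (oxt) measured 269, 218 and 228 CPM in piscivores, against 77.1, 173 and 7.91 CPM in planktivores. Its groups did not overlap, but the planktivores were so unequal that the edgeR adjusted p was 0.562.

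Among 63 genes of photoreception and the retinoid cycle, 11 were higher and 1 lower in piscivores at an unadjusted p below 0.05. In the pigment epithelium and retinoid group it was 6 of 20, and among opsins and phototransduction genes 5 of 43. rrh, the pigment-epithelium opsin peropsin, had 5.84, 5.68 and 5.61 CPM in piscivores, against 2.18, 3.08 and 2.06 CPM in planktivores (log2 fold change 1.22 ± 0.22 (SE), edgeR adjusted p = 0.0969), and oca2, a melanosome protein, had 2.11, 3.15 and 2.26 CPM in piscivores, against 1.002, 1.26 and 0.426 CPM in planktivores. The rod transducin gnat1 and the pineal enzyme gene aanat2, which makes melatonin, were high in piscivore 1, at 4.77, 0.0684 and 1.58 CPM in piscivores, against 0.131, 0.0293 and 0.532 CPM in planktivores for gnat1 and 4.02, 0.137 and 0.589 CPM in piscivores, against 0.261, 0.147 and 0.390 CPM in planktivores for aanat2. Their levels in the other piscivores reached down to those of planktivores, whereas rpe65a was high in all 3 piscivores.

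Circadian genes had 9 of 36 members higher and 2 lower in piscivores at an unadjusted p below 0.05. In 2022 the split was 1 higher and 8 lower. ciarta, a repressor of the clock that was called in 2023, measured 24.1, 22.4 and 35.3 CPM in piscivores, against 7.01, 9.38 and 8.76 CPM in planktivores (log2 fold change 1.70 ± 0.21 (SE), edgeR adjusted p = 0.0435). per1b, a period gene that light induces in fish, had 55.9, 45.98 and 88.6 CPM in piscivores, against 21.8, 31.3 and 30.5 CPM in planktivores (log2 fold change 1.19 ± 0.26 (SE), edgeR adjusted p = 0.135), and the repressor gene bhlhe41 had 81.0, 78.6 and 84.3 CPM in piscivores, against 53.3, 53.2 and 61.3 CPM in planktivores (log2 fold change 0.54 ± 0.11 (SE), edgeR adjusted p = 0.126). Piscivore 4 was the highest fish for all 3. The hours at which fish were caught by seine and by trawl go with the phenotype and are not given in the sources used here. A test of whether the difference between phenotypes changed with the year called 3 genes, or 0.0138% of those tested, and ciarta and per1b were among them. Of 23 Klf and Sp zinc-finger factors, 15 had a log2 fold change above 0. At an unadjusted p below 0.05, 9 were higher in piscivores and 0 lower. Besides sp8a, sp8b and sp9, they included klf9, a target of glucocorticoid and thyroid hormones, with 10.04, 8.14 and 13.1 CPM in piscivores, against 6.05, 7.94 and 6.70 CPM in planktivores. LOC116040748, 1 of the LOC genes that the study names klf15, had 9.95, 8.83 and 8.62 CPM in piscivores, against 4.44, 5.01 and 4.11 CPM in planktivores (log2 fold change 1.01 ± 0.17 (SE), edgeR adjusted p = 0.0917). In 2022 its log2 fold change was -0.66 ± 0.20 (SE), edgeR adjusted p = 0.505. LOC116050231, a klf15 that the study lists as higher in planktivores of 2023, had overlapping groups here (log2 fold change -0.26 ± 0.41 (SE), edgeR adjusted p = 0.824). In 2022 LOC116050231 was lower in every piscivore, with 2.23, 1.98 and 1.63 CPM in piscivores 1, 2 and 3, against 5.96, 7.47 and 6.24 CPM in planktivores 2, 3 and 4 (log2 fold change -1.75 ± 0.22 (SE), edgeR adjusted p = 0.0660).

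At an unadjusted p below 0.05, some signalling families held more members higher in piscivores than lower, and others were split. For TGF-beta and BMP signalling the count was 13 higher and 2 lower of 59, for Wnt signalling 12 and 1 of 57, and for insulin and insulin-like growth factors 6 and 0 of 27. Notch and hedgehog signalling had 5 higher and 4 lower of 30, and fibroblast growth factors and their receptors 4 and 3 of 37. ltbp3, which stores latent TGF-beta in the matrix, had 26.1, 21.5 and 21.2 CPM in piscivores, against 13.4, 14.95 and 12.0 CPM in planktivores (log2 fold change 0.77 ± 0.15 (SE), edgeR adjusted p = 0.105). The secreted Wnt antagonist gene sfrp5 had 124, 91.6 and 76.6 CPM in piscivores, against 57.4, 44.2 and 24.6 CPM in planktivores, the Wnt ligand gene wnt9a had 7.69, 7.39 and 5.40 CPM in piscivores, against 3.57, 2.96 and 2.199 CPM in planktivores and the Wnt amplifier gene rspo3 had 11.9, 10.9 and 12.5 CPM in piscivores, against 7.71, 5.36 and 5.82 CPM in planktivores. igf2b and the growth hormone receptor gene ghra had edgeR adjusted p of 0.121 and 0.151, with 10.8, 11.3 and 11.3 against 6.10, 8.06 and 6.03 CPM for the latter. notch2, a receptor of the Notch pathway, had 65.1, 46.6 and 59.1 CPM in piscivores, against 23.7, 31.3 and 27.9 CPM in planktivores (log2 fold change 1.04 ± 0.17 (SE), edgeR adjusted p = 0.0851).

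Sodium, calcium and potassium channels were split, with 15 higher and 14 lower in piscivores of 110 tested at an unadjusted p below 0.05. Beside kcnf1b, the accessory subunit genes kcne4 and cacng6b had 75.1, 58.3 and 60.4 CPM in piscivores, against 34.02, 26.2 and 20.9 CPM in planktivores and 2.63, 4.11 and 4.25 CPM in piscivores, against 1.13, 0.645 and 0.816 CPM in planktivores, and the M-current channel gene kcnq5a had 24.4, 22.5 and 21.3 CPM in piscivores, against 11.9, 10.4 and 5.71 CPM in planktivores. Glutamate receptors had 1 higher and 4 lower of 31. The AMPA receptor subunit gria4b had 39.1, 35.9 and 35.4 CPM in piscivores, against 52.7, 51.4 and 63.6 CPM in planktivores (log2 fold change -0.60 ± 0.13 (SE), edgeR adjusted p = 0.126) and the kainate receptor subunit grik2 had 47.003, 47.4 and 45.8 CPM in piscivores, against 56.6, 76.0 and 77.5 CPM in planktivores (log2 fold change -0.58 ± 0.14 (SE), edgeR adjusted p = 0.164), each lower in every piscivore, whereas the metabotropic receptor gene grm2a had 70.1, 31.1 and 40.7 CPM in piscivores, against 18.3, 21.3 and 26.7 CPM in planktivores. Among GABA and glycine receptors, gabra5, a subunit of the GABA-A receptor, had 125, 71.6 and 81.1 against 40.4, 57.2 and 63.6 CPM, and 2 of 30 were higher in piscivores at an unadjusted p below 0.05. The extracellular proteoglycan brevican (bcan), which surrounds synapses, had 234, 133 and 238 CPM in piscivores, against 32.1, 61.9 and 39.4 CPM in planktivores (log2 fold change 2.18 ± 0.32 (SE), edgeR adjusted p = 0.0737). It stood alone in its list. Of 12 tested genes for the matrix around neurons, bcan was the 1 higher at an unadjusted p below 0.05 and 0 were lower, at a median of 0.07.

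Other families held few members at that level or were split. Of 83 respiratory chain genes and 79 ribosomal protein genes none had an unadjusted p below 0.05, at medians of -0.12 and 0.04. The same held for 19 genes of neuronal identity, at -0.19. Synaptic vesicle genes had 4 higher and 2 lower of 72, and cell cycle genes 5 and 7 of 140, where 2022 had 31 higher and 1 lower. Myelin and oligodendrocyte genes had 4 and 5 of 27. The myelin protein gene mpz had 3824, 5372 and 5651 CPM in piscivores, against 4677, 5527 and 4714 CPM in planktivores (log2 fold change -0.01 ± 0.19 (SE), edgeR adjusted p = 0.992). Radial glia and astroglia genes had 4 higher and 1 lower of 20, among them nes, which encodes the progenitor filament nestin (29.4, 28.9 and 37.6 against 23.3, 16.7 and 13.9 CPM), and the glutamine synthetase gene glulb (324, 298 and 227 against 219, 161 and 152 CPM). The defining marker fabp7a had overlapping groups, at 584, 901 and 444 against 988, 547 and 524 CPM (log2 fold change -0.09 ± 0.33 (SE), edgeR adjusted p = 0.929).

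Fish by fish, the lists did not all follow the phenotype. The level of a list in a fish was taken as the median, over its tested members, of the log2 CPM less the mean of the 6 fish. For matrix glycoproteins and proteoglycans it was 0.49, 0.20 and 0.30 in piscivores, against -0.16, -0.32 and -0.57 in planktivores, and for plasma proteins 0.47, 0.28 and 0.28 in piscivores, against 0.06, -0.38 and -0.88 in planktivores. Piscivore 1 was the highest fish for both and planktivore 6 the lowest. For antigen presentation and interferon it was 0.83, -0.13 and 0.42 in piscivores, against -0.58, -0.23 and -0.07 in planktivores, with piscivore 2 below planktivore 6. Summed markers of tissues outside the brain were dominated by single fish. The bone and cartilage markers col2a1a, col10a1a, matn1 and sp7 summed to 277, 3.01 and 10.7 CPM in piscivores against 44.7, 2.32 and 2.09 CPM in planktivores, and the muscle markers to 3.88, 11.2 and 5.12 CPM in piscivores against 49.2, 8.82 and 5.78 CPM in planktivores. Bone and cartilage genes had 10 of 36 members higher in piscivores at an unadjusted p below 0.05, at a median of 0.45 with all fish and 0.06 without piscivore 1. Skeletal muscle genes had 3 higher and 5 lower of 48. Among the muscle markers, ckma and acta1a were lower in every piscivore, whereas ckmb and acta1b overlapped. ckma had 0.174, 1.09 and 0.279 against 7.10, 1.73 and 1.63 CPM (log2 fold change -2.93 ± 0.88 (SE), edgeR adjusted p = 0.233). In 2022 ckma and ckmb were both called, lower in piscivores (-3.51 ± 0.29 (SE) and -3.76 ± 0.33 (SE), each at an edgeR adjusted p of 0.0129). The hox markers of hindbrain and spinal cord summed to 0.260, 12.4 and 3.41 CPM in piscivores against 0.828, 23.6 and 0.745 CPM in planktivores, highest in piscivore 2 and planktivore 5. The part of such tissue in the differences between phenotypes was not tested.

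**Figure D5:**
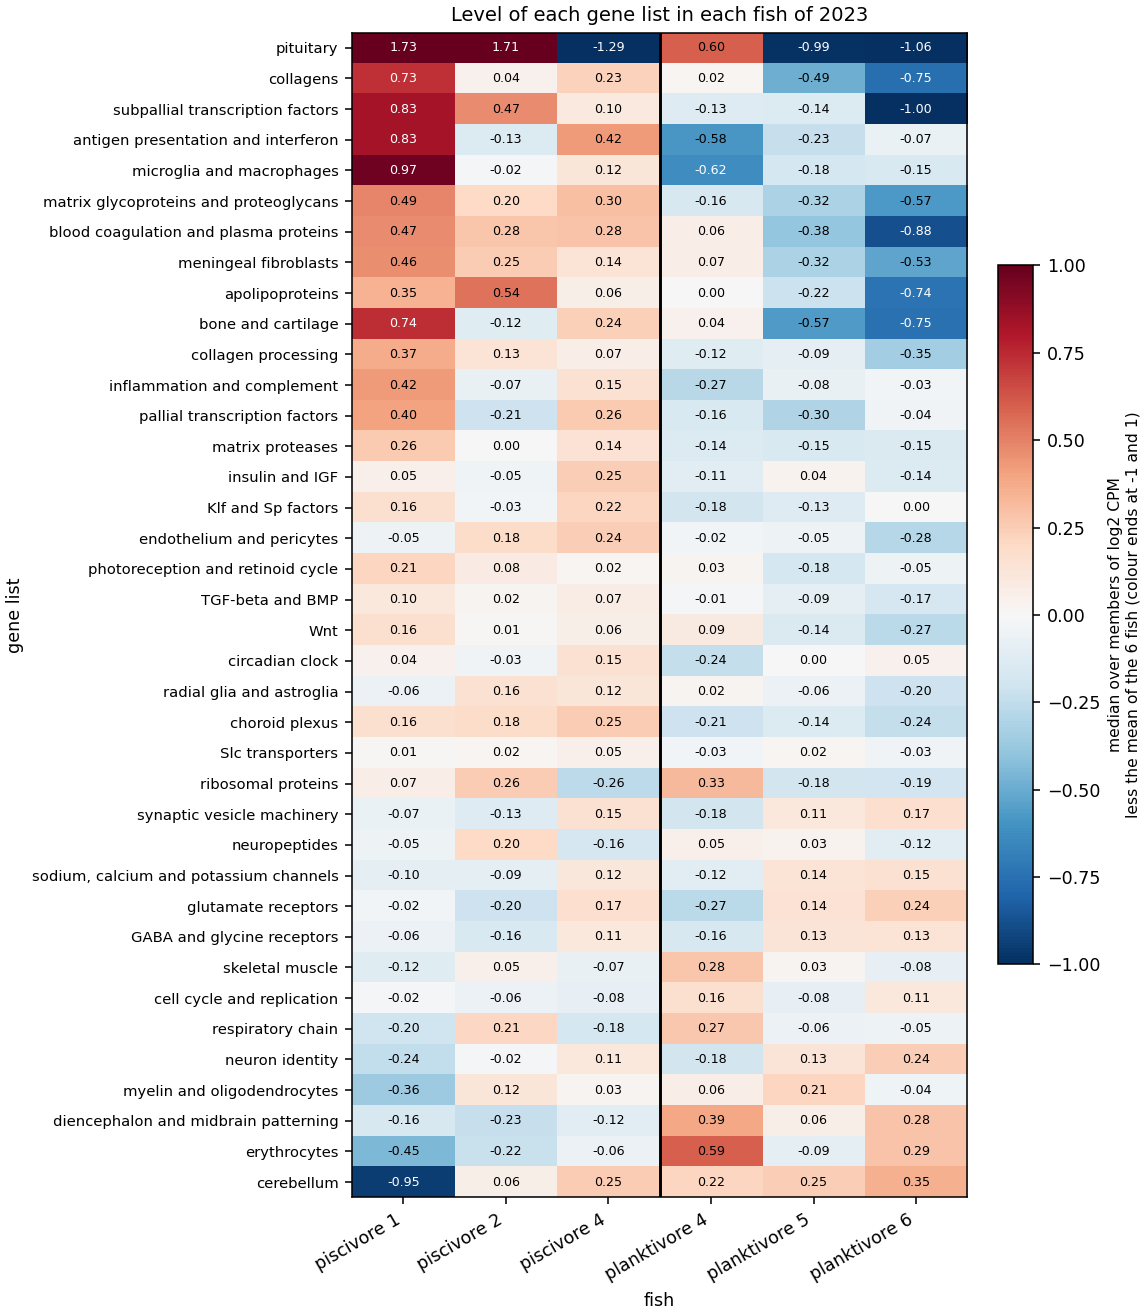
Level of each gene list in each of the 6 fish of 2023, as the median over its tested members of log2 CPM less the mean of the 6 fish, with red above and blue below that mean and the value printed in each cell. The matrix glycoprotein, meningeal and plasma protein lists are above 0 in all 3 piscivores and at or below 0.07 in all planktivores, while the pituitary list is high in piscivores 1 and 2 and planktivore 4 and the cerebellum list is low in piscivore 1.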

How the data were processed

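Brains of wild pikeperch were sequenced one library per fish from poly(A)-selected RNA. The authors trimmed the reads with Trimmomatic, mapped them with STAR (2.5.2 in the submitters' processing notes) to assembly SLUC_FBN_1.2 and counted unique reads within exons with featureCounts, so the deposited values are raw counts per gene. Whether counting used strand is not given in the sources used here. The authors also deposited TPM values (transcript abundances scaled for gene length and depth), which were not used. Reads that map to several places are lost from near-identical copies.

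Lines without a gene name (24 of 32987, holding 0.5888 to 0.8992% of a library's counts) were left out. Counts of the 6 fish of 2023 were fitted in edgeR 4.0.16 (filterByExpr, TMM, robust quasi-likelihood F test), with DESeq2 1.42.0 and limma 3.58.1 (voom) as alternatives, in R 4.3.3. A prior count of 2 was added for log2 CPM by fish, and 3 counts per library were taken as the lowest measurable level. The 2022 fish were fitted alone in the same way, and the change of the difference with year was fitted to all 12 libraries. Alternatives were other tests, scalings and low-count filters, leaving out the 20 most counted genes, 1 fit to 12 libraries, a replicate block in 2022 and each fish left out in turn. The fits were tested on simulated data.

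Genes were named by rule: all DT genes, the defining markers and up to 4 further members with the smallest p of each list described, and genes the study names for 2023. Members and gene lists were chosen with earlier results of these data known. Symbols of other families caught by a list's pattern (107 memberships) were removed after values had been seen. LOC genes are in no list, although 7840 of them were tested. Results for some genes are not reported here.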

Additional observations from a re-analysis of the deposited data

Results flagged for a closer look

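For 3 genes the difference between phenotypes in 2023 departed from that in 2022 by edgeR's test of the phenotype-by-year term. The clock repressor ciarta was higher in piscivores in 2023 (log2 fold change 1.70 ± 0.21, edgeR adjusted p = 0.0435) and had a log2 fold change of -1.56 ± 0.27 in 2022, a change of 3.25 ± 0.36 (edgeR adjusted p = 0.0180). In 2022 it measured 15.8, 7.76 and 14.7 CPM in piscivores 1, 2 and 3, against 37.3, 43.8 and 31.7 CPM in planktivores 2, 3 and 4, so the groups were apart in both years, in opposite order.

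The light-induced period gene per1b changed by 2.60 ± 0.33 (edgeR adjusted p = 0.0398), from -1.42 ± 0.18 in 2022 to 1.19 ± 0.26 in 2023. Its levels of 2022 were 36.9, 26.3 and 33.8 CPM in piscivores and 73.8, 95.5 and 89.9 CPM in planktivores. klf11a, a zinc-finger factor of the Klf family, changed by -2.46 ± 0.28 (edgeR adjusted p = 0.0180). It was called in 2022, at 12.9, 13.9 and 10.7 CPM in piscivores and 2.13, 2.86 and 2.66 CPM in planktivores (log2 fold change 2.29 ± 0.20, edgeR adjusted p = 0.0129), and measured 5.73, 6.84 and 5.06 CPM against 7.62, 6.74 and 5.29 CPM in 2023 (log2 fold change -0.16 ± 0.21, edgeR adjusted p = 0.780).

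With a fish left out, the change ranged from 3.01 to 3.43 for ciarta, from 2.27 to 2.78 for per1b and from -2.61 to -2.32 for klf11a, with edgeR adjusted p up to 0.0983, 0.137 and 0.0868. Year of capture, batch date, body size and any difference in the hour of capture cannot be told apart. The paper reports smaller fish of both phenotypes in the later year, with size ranges that did not overlap between the years.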

How the results depend on the processing

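The 36 DT genes of 2023 became 410 with DESeq2, 60 with no filter beyond 1 count, 19 without the robust option, 7 with limma-voom, 5 in 1 fit to all 12 libraries (3 of them among the 36), and 1 to 16 with a fish left out. They numbered 33 with DESeq2 size factors, 33 at 10 counts or more in every library and 36 without the 20 most counted genes. Each of the 36 kept its direction in every alternative that tested it. The 11 genes of 2022 became 149 with DESeq2, 43 with no filter, 7 without the robust option, 5 with limma-voom, 18 with the replicate number as a replicate block (6 higher, 12 lower) and 0 to 2 with a fish left out. The replicate numbers label separate fish, and the sources used here do not pair equal numbers, so the block is no paired analysis. No such fit was made for 2023. The 3 genes whose difference changed with year became 92 with DESeq2 and 0 to 8 with a fish left out. No cause of these shifts was tested.

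Among genes named with small or uneven differences, direction turned for col2a1a with limma-voom (log2 fold change 0.40) and for mpz with no filter (0.0032). With a fish left out the log2 fold change ran from -0.11 to 0.27 for cldn5a, -1.79 to 8.71 for col10a1a, -2.02 to 1.88 for col2a1a, -0.58 to 0.0064 for kl and -0.11 to 0.14 for mpz.

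The median of plasma proteins was -0.041 with no filter and that of pituitary genes -0.18 at 10 counts or more in every library, where 24 and 8 members entered. With a fish left out, medians ran from 0.41 to 1.13 for collagens, 0.33 to 0.78 for meningeal genes, 0.52 to 1.05 for subpallial factors, 0.21 to 0.38 for matrix proteases, 0.063 to 1.16 for bone and cartilage, 0.31 to 0.91 for microglia, 0.0073 to 0.45 for pallial factors, -0.58 to -0.36 for diencephalon and midbrain, -0.19 to -0.0042 for neuropeptides, 0.14 to 0.44 for photoreception, 0.047 to 0.28 for Klf and Sp factors, 0.032 to 0.076 for Slc genes, 0.031 to 0.24 for choroid plexus, 0.091 to 0.19 for TGF-beta and BMP, 0.082 to 0.28 for Wnt and 0.097 to 0.33 for insulin and IGF. Depth, between 15327406 and 33858794 counts a fish, limits genes near 3 counts, which was 0.0868 to 0.205 CPM.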

Other observations

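Counts for other families of the 2023 comparison are at an unadjusted p below 0.05, beside a background of 8.90% higher in piscivores and 4.78% higher in planktivores. Of 226 genes of ependyma and motile cilia, which line the ventricles and move cerebrospinal fluid, 26 were higher in piscivores and 6 lower, at a median log2 fold change of 0.11. Of 35 genes that respond to glucocorticoids, the stress steroids, 8 were higher and 1 lower (median 0.18), and of 33 genes of the integrated stress response 7 were higher and 1 lower (median 0.14). Heat shock genes and chaperones had 9 higher and 1 lower of 98, where 2022 had 13 higher and 0 lower of 94. Genes of the proteasome and ubiquitin had 6 higher and 0 lower of 49.

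Several other families were split. Of 63 genes of monoamine and acetylcholine signalling, 7 were higher and 5 lower in piscivores, at a median of -0.15. Immediate early genes, which neurons switch on within minutes of activity, had 3 higher and 3 lower of 39, and in 2022 they had 1 higher and 8 lower of 39. Nuclear receptors had 5 higher and 6 lower of 48, and genes of peripheral nerve and ganglia 0 and 0 of 19 at a median of -0.41.

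edgeR called no member of the 9 families in these 2 paragraphs. DESeq2 called 4 genes in them, per1b and 3 others that are named here after their values were seen. Over all genes it tested, DESeq2 called 1.63% higher and 0.237% lower in piscivores, so the 4 calls do not set these families apart. nr4a3, an activity-induced nuclear receptor, had 16.2, 9.65 and 11.8 CPM in piscivores 1, 2 and 4, against 5.88, 5.45 and 5.89 CPM in planktivores 4, 5 and 6 (edgeR adjusted p = 0.0975). psme2, a proteasome activator subunit, had 59.007, 35.99 and 43.1 CPM against 19.9, 21.3 and 26.2 CPM (edgeR adjusted p = 0.109). adrb3a, a beta-adrenergic receptor, was lower at 2.66, 3.08 and 2.67 CPM against 8.1018, 3.96 and 5.53 CPM (edgeR adjusted p = 0.189). Each of the 3 separated the groups, as did 11.0% of all tested genes with piscivores higher and 8.96% with planktivores higher.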
